A study of Mus musculus with 15 samples.

Results

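Vomeronasal receptor genes were examined in mouse liver chromatin as the protein-coding genes of chromosomes 1 to 19 whose symbols start with Vmn1r or Vmn2r. The rule found 354 genes of 20665, with 231 in the Vmn1r family and 123 in the Vmn2r family. It used gene names only and no measured value. Each gene was read over a window from 1 kb before its outer bound to 1 kb after it. For 3 members (Vmn2r122, Vmn1r186 and Vmn1r187) the listed coordinates lie before the first region of any list on their chromosomes, and they were not analysed here. The values below cover the other 351 members (229 Vmn1r and 122 Vmn2r) beside 20560 protein-coding genes in all.

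The livers came from C57Bl/6 mice of 8 to 12 weeks on a normal diet, harvested in the morning, and were either wild type (WT) or Uhrf1hepKO (KO). KO livers lack Uhrf1 in hepatocytes, and the labels do not name the Cre or promoter that removes it. Uhrf1 encodes a protein that brings the maintenance DNA methyltransferase to newly copied DNA. At baseline, H3K9me3 was profiled in 1 WT and 1 KO library, H3K27me3 in 2 WT libraries and 1 KO library, and H3K4me3 in 2 WT and 2 KO libraries. For WT livers in regeneration, 1 further H3K27me3 library was made at 30 h, 1 at 40 h and 1 at 96 h, and WT replicate 2 of H3K27me3 was the 0 h point of that round. How regeneration was started, and whether libraries came from separate or pooled animals, is not given in the labels.

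Vomeronasal receptors are G protein-coupled receptors of sensory neurons in the vomeronasal organ of the nose, where they detect pheromones and other social odours. Vmn1r receptors sit in neurons that use the G protein subunit Gnai2 and mostly have a coding sequence in a single exon. Vmn2r receptors have a long extracellular domain, several coding exons, and sit in neurons that use Gnao1. Each neuron expresses very few of these genes, the genes lie in tandem arrays, and liver is not a tissue where they are known to act. H3K9me3 marks constitutive heterochromatin and some gene clusters, H3K27me3 is laid down by Polycomb complexes, and H3K4me3 marks active or poised promoters.

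The promoter sequences on which the H3K9me3 and H3K4me3 results turn are those of Vmn1r101, Vmn1r149, Vmn1r158 and Vmn2r29. Each run holds the 300 bases from 250 before to 50 after an annotated start, on the gene's own strand (minus for all 4), from RefSeq on GRCm38.p6, with CG pairs in capitals. The runs shown are chr7:20442544-20442843 (Vmn1r101), chr7:22790733-22791032 (Vmn1r158), chr7:7278240-7278539 (the outer start of Vmn2r29) and chr7:7247279-7247578 (an inner start of Vmn2r29). The run of Vmn1r149 (chr7:22438180-22438479) is identical to that of Vmn1r101 and is not repeated.
Vmn1r101: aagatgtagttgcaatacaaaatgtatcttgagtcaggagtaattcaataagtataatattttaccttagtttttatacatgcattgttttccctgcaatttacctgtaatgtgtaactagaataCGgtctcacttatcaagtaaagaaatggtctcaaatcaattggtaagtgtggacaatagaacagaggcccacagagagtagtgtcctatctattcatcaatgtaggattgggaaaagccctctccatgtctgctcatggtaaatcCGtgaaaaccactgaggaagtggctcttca
Vmn1r158: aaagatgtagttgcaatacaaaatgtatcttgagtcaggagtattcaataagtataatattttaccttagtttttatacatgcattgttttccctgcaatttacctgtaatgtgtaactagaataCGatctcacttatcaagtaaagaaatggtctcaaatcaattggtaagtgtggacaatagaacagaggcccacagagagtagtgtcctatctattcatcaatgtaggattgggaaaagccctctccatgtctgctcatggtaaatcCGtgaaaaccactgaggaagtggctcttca
Vmn2r29 outer start: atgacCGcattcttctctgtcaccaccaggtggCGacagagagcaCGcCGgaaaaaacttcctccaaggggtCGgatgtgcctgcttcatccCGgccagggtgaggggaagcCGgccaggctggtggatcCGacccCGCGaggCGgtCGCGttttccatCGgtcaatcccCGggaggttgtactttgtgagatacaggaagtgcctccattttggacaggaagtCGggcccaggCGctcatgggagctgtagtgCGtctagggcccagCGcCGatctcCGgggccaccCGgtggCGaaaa
Vmn2r29 inner start: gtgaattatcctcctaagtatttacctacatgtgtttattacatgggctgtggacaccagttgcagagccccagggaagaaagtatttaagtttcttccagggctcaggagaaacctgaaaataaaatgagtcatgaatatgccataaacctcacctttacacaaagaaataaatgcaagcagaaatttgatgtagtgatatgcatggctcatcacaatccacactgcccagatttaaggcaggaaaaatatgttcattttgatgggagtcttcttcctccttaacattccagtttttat
The first pair shows how alike array members can be: the run of Vmn1r158 was 99% identical to those of Vmn1r101 and Vmn1r149. The Vmn2r29 pair shows a contrast within 1 gene, with 23 CG pairs and 62.3% G and C at the outer start against 0 CG pairs and 38.3% at the inner start.

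The 12 ChIP libraries were deposited as lists of called regions, and no list was used for the 3 input samples. H3K9me3 lists held 53980 (WT) and 50069 (KO) broad peaks on chromosomes 1 to 19, H3K27me3 lists 10473 to 14630 islands (10473 to 13942 of them used, at an FDR of 0.01 or below), and H3K4me3 lists 24917 to 71868 narrow peaks. Total read depth per library is unknown from these files. Replicate 2 of H3K4me3 in each genotype carries an antibody tag that names H3K9me3, and both were grouped by their titles. A peak of all 4 H3K4me3 lists lay at each of the 8 hepatocyte markers checked, among them Alb and Hnf4a, and 2 or 3 of 5 matched markers of vomeronasal or olfactory neurons had a peak, with none at Omp and Trpc2, peaks in all 4 lists at Gnao1 and Adcy3 and in both replicate 1 lists at Gng8. Markers of other liver cells had peaks too, at 4 of 4 endothelial and 2 of 3 bile duct genes in every list. Peaks also lay at 2 to 4 of 4 stellate and fibroblast genes and 1 to 4 of 5 macrophage and lymphocyte genes. The lists hold no expression values, so the loss of Uhrf1 was not checked here. In whole liver, fewer cells carrying a mark and less of the mark per cell cannot be told apart. With 1 library in a group, differences have no replicate check, and no test is given. For H3K4me3, 2 libraries against 2 allow no p below 0.333 in an exact two-sided permutation test.

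Most receptor genes carried none of the 3 marks in any list. A region of at least 1 of the 12 lists touched the window of 122 of the 351 members (34.8%), against 89.6% of all genes. The other 229 members were 168 of 229 Vmn1r and 61 of 122 Vmn2r, whose genes are longer (median 24989 bp against 924 bp). Over all genes the median was 17273 bp, and a longer window is more easily touched. Of members with a promoter sequence, 37.3% had one at least 95% identical to that of another member. The part of length and of such copies in these shares was not tested. Members lay on 11 chromosomes in 26 clusters, counting as 1 cluster genes with gaps of up to 1 Mb, and 9 clusters of 10 or more members held 290 of them. Clusters are called by chromosome and order, so that 7-4 is the fourth on chromosome 7.

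**Figure D1:**
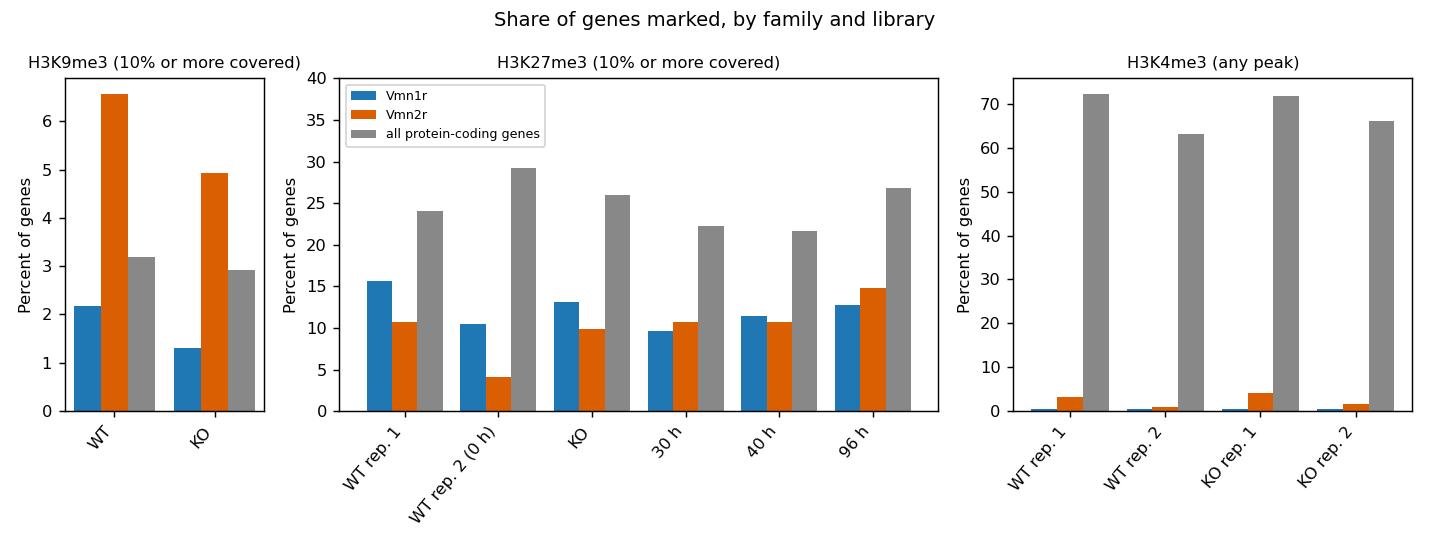
Percent of genes marked in each library for Vmn1r (229), Vmn2r (122) and all protein-coding genes (20560): H3K9me3 and H3K27me3 regions over 10% or more of the window, and any H3K4me3 peak. Each bar is 1 library. Vmn2r stood above all genes for H3K9me3, and both families stood below all genes for H3K27me3 and far below for H3K4me3.

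H3K9me3 covered few receptor genes, and never most of one. A gene was counted as covered where broad peaks held 10% or more of its window. In WT, 13 members were covered (3.7%), against 3.20% of all genes. In KO, 9 members were covered (2.56%), against 2.92% of all genes. The covered genes were 5 Vmn1r and 8 Vmn2r in WT, and 3 Vmn1r and 6 Vmn2r in KO. In no member did peaks reach 50% of the window.

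The families differed in how much peak length they held. Peaks held 3.08% of Vmn2r window length in WT and 2.02% in KO, and 0.736% and 0.445% of Vmn1r window length. Over all genes the shares were 1.62% and 1.41%. Of 122 Vmn2r genes, 42 had at least 1 bp of a peak in WT and 35 in KO, and of 229 Vmn1r genes 11 and 9 did. Over all genes the share with at least 1 bp was 23% in WT and 23.5% in KO. Peak length was thus lower in KO in both families and over all genes, while the number of genes with a peak was lower in KO among members and higher over all genes.

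Member by member, 61 had a peak in at least 1 genotype, of which 47 held less in KO (77%) and 14 held more (23%). Of the 5401 genes of all kinds with a peak in at least 1 genotype, 52.7% held less in KO and 46.9% held more. Among these, 36 members had peaks in both lists (59%, against 76.8% of all such genes), 17 in WT alone (27.9%) and 8 in KO alone (13.1%, against 12.5%). No test of these differences was made. The KO list had fewer and shorter peaks genome-wide, with a median of 525 bp against 560 bp, and the part of that difference in the members' values was not tested.

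Among members covered in both genotypes, the highest WT value was at Vmn2r57, with 41.7% of its window in WT and 23.5% in KO (chr7:41399732-41448641, cluster 7-6). Vmn2r35 (chr7:7786151-7819867, cluster 7-2) had 37.2% and 36.0%. Vmn1r149 in cluster 7-4 had 32.1% and 18.5%. These 3 genes were covered in both genotypes, with lower values in KO at Vmn2r57 and Vmn1r149 and nearly equal values at Vmn2r35. Vmn2r38 had 23.4% in WT and 11.4% in KO, and Vmn2r87 had 17.1% and 13.6%. Vmn2r16 had 14.5% and 14.4%. Vmn1r48 went the other way, with 12.0% in WT and 20.5% in KO. In all, 8 members were covered in both lists (2.28%), against 2.60% of all genes, and 14 in at least 1 (3.99%), against 3.52%.

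**Figure D2:**
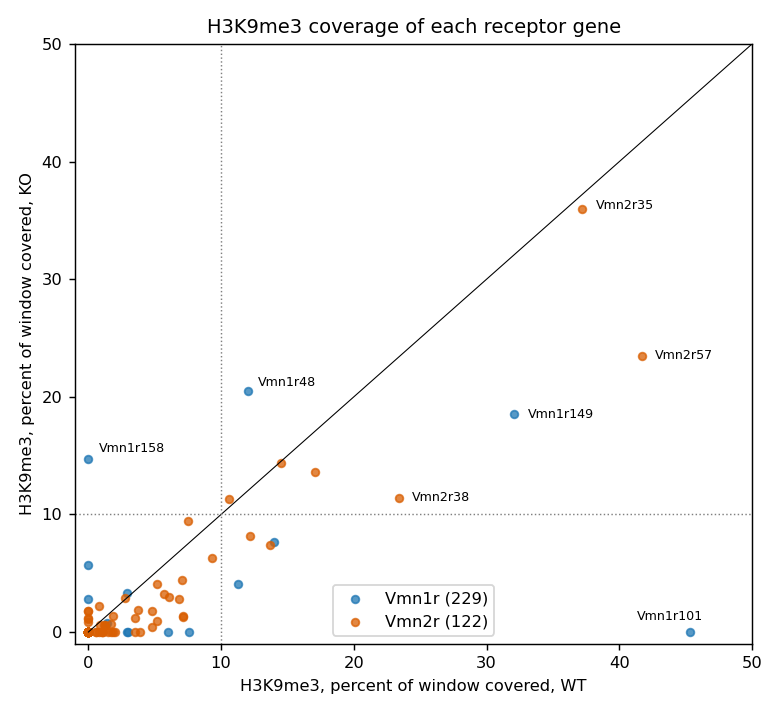
H3K9me3 coverage of each receptor gene: percent of the window in broad peaks in WT (horizontal) and KO (vertical), 1 point per gene, 1 library per genotype. Dotted lines mark 10% and the solid line equal values. Most points lie at 0, and among those with a peak more lie below the line (47) than above it (14).

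A gene was called lost where 1 genotype covered it and the other had no base in a peak. Vmn1r101 was the single member lost in KO, with 45.3% in WT and 0% in KO, against 0.107% of all genes. Vmn1r158 was the single member gained in KO, with 0% in WT and 14.7% in KO, against 0.0535% of all genes. Both lie in cluster 7-4, and so does Vmn1r149, which was covered in both. The printed runs show that the promoters of Vmn1r101 and Vmn1r149 are the same in every base and that of Vmn1r158 nearly so. Vmn1r101 and Vmn1r149 each had 11 other members with a promoter at least 95% identical, and Vmn1r158 had 6. Reads from such copies may not be assignable to 1 of them, and how the authors treated reads with several matches is not given in the sources used here. Without members whose promoter was at least 95% identical to that of another, 0 members were lost and 0 gained, and 6 were covered in WT and 3 in KO.

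The peaks over receptor genes were about as high as peaks elsewhere, by the authors' own values. Their median fold over background was 3.42 in WT and 3.39 in KO, against 3.45 and 3.49 over all peaks. When peaks with a q-value above 1e-05 were left out, no member was covered in either list, and 46 of all genes in WT (0.224%) and 55 in KO (0.268%) were. With the authors' narrow peaks, 2 members were covered in WT (0.57%) and 1 in KO (0.285%), against 1.73% and 1.61% of all genes.

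Within Vmn2r windows most peak centres lay in the gene body. The body makes up most of such a window, with a median gene length of 24989 bp and 1 kb on each side. The share expected from length was not computed, so no preference for the body can be read from these counts. Of 101 pairs of a peak and a Vmn2r gene in WT, 96 had the peak's centre inside the gene beyond 1 kb of the start, and 73 of 76 did in KO. Of the 322 members with a promoter sequence, 4 had a peak over the promoter in WT (Vmn1r101, Vmn1r149, Vmn1r213 and Vmn2r29) and 2 in KO (Vmn1r149 and Vmn2r29). These are 1.24% and 0.621% of member promoters, against 0.766% and 0.644% of all promoters.

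In the arrays, H3K9me3 was denser between the receptor genes than over them. The 19 clusters of 2 or more members span 25.7 Mb. Peaks held 6.58% of that length in WT and 5.21% in KO, against 2.35% and 2.02% of chromosomes 1 to 19. Inside the spans, members' windows held 2.69% and 1.77%, and the rest 7.32% and 5.86%. Of the 100 other protein-coding genes inside the cluster bounds, 22 were covered in each genotype. Of 391 genes whose symbols start with Zfp, zinc-finger genes known to carry H3K9me3, 170 were covered in WT and 172 in KO. Of 1103 olfactory receptor genes (Olfr), 10 and 8 were covered, a share closer to that of Vmn1r.

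By the mean of WT and KO, the highest member was Vmn2r35 in 7-2 and Vmn1r149 in 7-4, where Vmn1r101 had the higher WT value. It was Vmn2r16 in 5-1, Vmn1r48 in 6-3, Vmn1r65 (14.0% in WT, 7.62% in KO) in 7-1, Vmn2r79 (13.7% and 7.40%) in 7-7 and Vmn2r97 in 17-1. In 13-1 and 6-1 no member reached 10%, the highest being Vmn1r213 (7.61% and 0%) and Vmn1r5 (2.93% and 3.31%). The lowest members stood at 0% in both genotypes in each of these 9 clusters. In 7-4, the array with the most members, 83 of 86 stood there, and 33 of 36 did in 13-1. The span of 7-6, with 8 Vmn2r genes including Vmn2r57, held the largest share of peak length of any cluster (22.1% in WT and 18.2% in KO). Cluster 17-2 held 17.9% and 14.8%, and 4-1, with 2 members, held 17% in KO.

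H3K27me3 lay over receptor genes less often than over genes in general, in each of the 6 libraries. At baseline, 49 members (14%) were covered in WT replicate 1, 29 (8.26%) in WT replicate 2 and 42 (12%) in KO. The same shares of all genes were 24%, 29.2% and 26%. Olfr genes (18.1%, 17.5% and 17.1%) and Zfp genes (9.21%, 11.3% and 9.21%) also lay below all genes. In the members' counts the 2 WT libraries lay further from each other than either lay from KO.

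Islands were long and usually took in the whole of the short Vmn1r genes. Of 36 Vmn1r genes covered in WT replicate 1, 33 were covered from end to end, as were 24 of 24 in replicate 2 and 24 of 30 in KO. Of the Vmn2r genes, 13, 5 and 12 were covered, and 6, 2 and 3 of them from end to end. Median island length over members was 31000 bp, 24000 bp and 24500 bp. A single island lay over 2 or more members in 10, 4 and 4 cases, so neighbouring members are not independent.

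Over members, the authors' fold of ChIP over control was modest. Its median was 1.38, 1.55 and 1.39, against 1.62, 1.58 and 1.63 over all islands in the same lists. When islands with a fold under 2 were left out, 2, 0 and 0 members were covered, against 6.22%, 5.96% and 6.01% of all genes.

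Between genotypes, a gene was called lost where both WT libraries covered it and KO had no base in an island, and gained in the opposite case. The 3 members lost were Vmn1r47, Vmn1r180 and Vmn1r238 (0.855%), against 0.885% of all genes. The 6 gained were Vmn1r4, Vmn1r31, Vmn1r38, Vmn2r19, Vmn2r81 and Vmn1r219 (1.71%), against 0.725% of all genes. With WT replicate 1 left out, 18 members were gained and 4 lost, and with WT replicate 2 left out 7 and 14. The shares of all genes with WT replicate 1 left out were not computed. KO and WT replicate 1 belong to the same set, named without a round number, and 411 of 411 islands with the same bounds had equal control reads in both, while WT replicate 2 belongs to round 3. Within that set, 14 members were lost (3.99%) and 7 gained (1.99%), against 1.68% and 2.95% of all genes. The balance of lost and gained members thus turned with the WT library used.

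Vmn1r180 was covered over 100% of its window in both WT libraries, by islands with folds of 1.51 and 1.55, and over 0% in KO. Vmn1r47 likewise had 100%, 100% and 0%, with folds of 1.3 and 1.24, and its promoter was 100% identical to that of Vmn1r48. Vmn1r31 had 0% in both WT libraries and 100% in KO, from an island with a fold of 1.16. Vmn1r4 had 0%, 0% and 47.6%, with a fold of 1.47. That island did not reach the promoter bases listed for Vmn1r4, which had no H3K27me3 island in any library. At 96 h of regeneration in WT, Vmn1r180 stood at 100% and Vmn1r47, Vmn1r31 and Vmn1r4 at 0%. Of the gained members, Vmn1r38, Vmn2r19 and Vmn2r81 were covered in WT livers at 96 h (38.8%, 58.1% and 45.1%).

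Members covered in all 3 baseline libraries numbered 23 (6.55%), against 20.6% of all genes, and 20 of them were Vmn1r. In 19 members all 3 libraries showed 100%. Another 22 were covered in 1 of the 6 libraries only (6.27%), against 5.19%. Across all 6 libraries, regeneration included, 11 members were covered throughout (3.13%), against 14.5% of all genes. They were Vmn1r55, Vmn1r85, Vmn1r87, Vmn1r181, Vmn1r183, Vmn1r233, Vmn1r234, Vmn1r235, Vmn1r236, Vmn2r9 and Vmn2r117. Vmn2r117 lies in cluster 17-2, where control reads over the islands were also high. Its islands had folds of 1.11 to 1.23, and in KO 25.5% of its window was covered. Vmn1r85 encodes a receptor known to respond to sulfated oestrogens. At Vmn1r55 the islands had folds of 1.69, 1.92, 1.76, 1.59, 1.55 and 1.98 (WT replicate 1, WT replicate 2, KO, 30, 40 and 96 h).

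**Figure D3:**
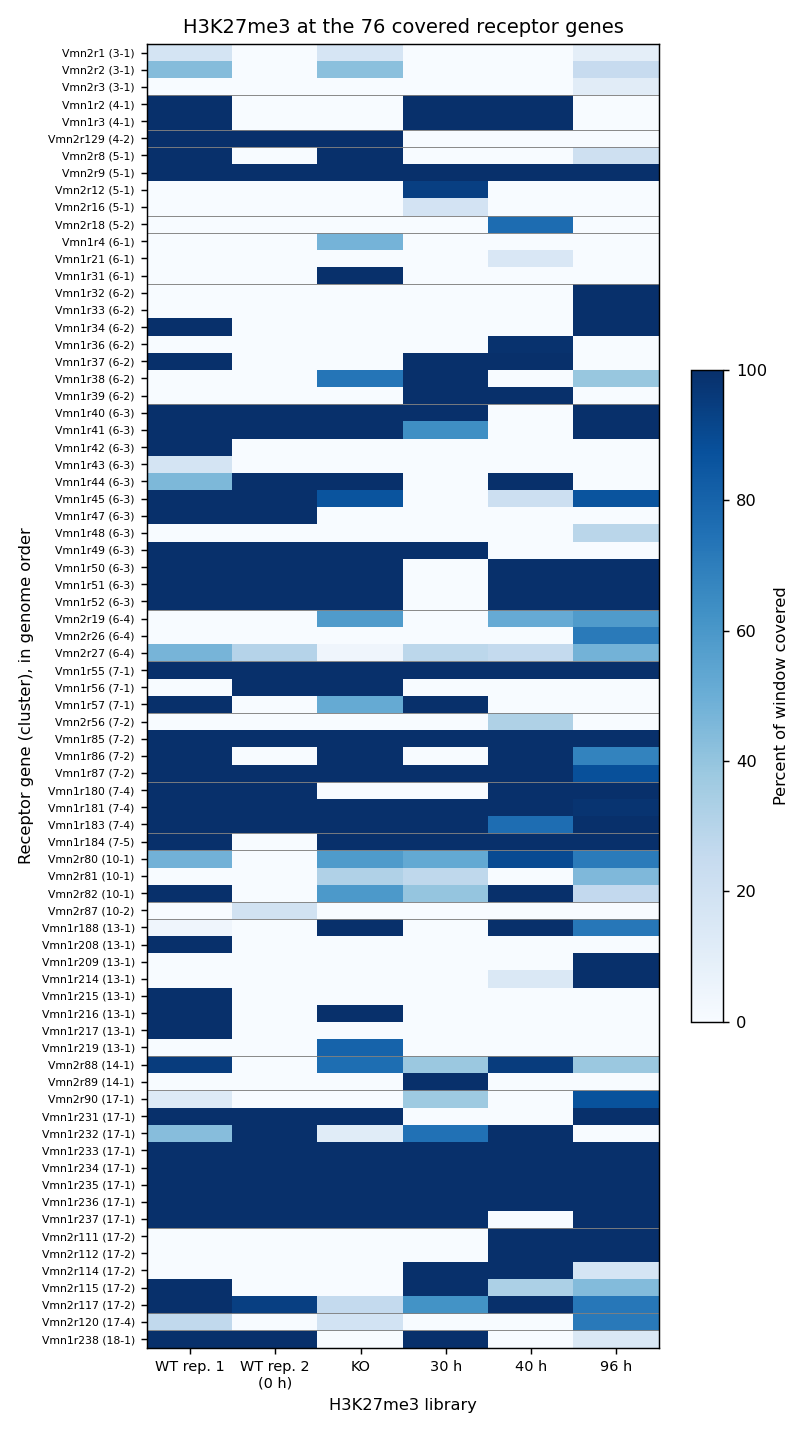
Percent of the window in H3K27me3 islands for the 76 members covered in at least 1 of 6 libraries, in genome order with the cluster in brackets. Rows that are dark across all columns are the members covered throughout, such as Vmn1r55 and Vmn1r233 to Vmn1r236, and many other rows are dark in 1 or 2 libraries.

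Most of these constantly covered members had a promoter unlike those of the other members. The closest promoter among all other members was under 60% identical for 7 of the 11, with a median of 52.7%. It was under 60% for 43 of all 322 members with a promoter (13.4%). Of the 11, 1 had a promoter at least 95% identical to another (96.3%). Over all members the median was 90.3%, and over the 275 members covered in no library 92.3%. Of Vmn1r members covered in any library, 11.6% had a copy at least 95% identical, against 40.3% of all Vmn1r members. In Vmn2r the shares were 23.1% and 31.9%. The part of reads that match several copies was not tested. Of the 11, 7 also stood next to a gene that is no vomeronasal receptor (63.6%), as did 38 of the 76 members covered in any library (50%) and 76 of the 275 covered in none (27.6%).

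That position was seen in every library. Of the 114 members next to another gene, 24 were covered in WT replicate 1, 15 in replicate 2 and 23 in KO. Of the 237 members standing between other members, 25, 14 and 19 were covered. At 30, 40 and 96 h the pairs were 19.3% and 5.49%, 21.1% and 6.33%, and 21.1% and 9.7%. Few islands reached from a member to the window of another gene: 5 of 37 in WT replicate 1, 0 of 24 in replicate 2 and 4 of 40 in KO. This comparison was chosen after the values were seen, and is given as a description.

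Among the 9 clusters of 10 or more members, 6-3 (chr6:89711261-90270053), with 15 Vmn1r genes of the V1ra and V1rb groups, had the largest share of its span in islands at baseline. Islands covered 11 of its members in WT replicate 1, 9 in replicate 2 and 8 in KO, and 3, 5 and 7 at 30, 40 and 96 h. They held 67.2%, 38.3% and 55.1% of the span at baseline. Cluster 7-5, with 2 members, held 81.4%, 48.1% and 61.7%. Vmn1r50, Vmn1r51 and Vmn1r52 stood at 100% in all baseline libraries and at 40 and 96 h, and at 0% at 30 h. In cluster 17-1 on chromosome 17 the covered members were 8, 7, 7, 7, 5 and 7 of 36 in the same order. All but Vmn2r90 came from Vmn1r231 to Vmn1r237, at its far end.

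The array with the most members, 7-4, had coverage at that end alone. Of its 86 Vmn1r genes, Vmn1r180, Vmn1r181 and Vmn1r183 were covered in at least 1 library, and they are its members 84, 85 and 86 in order. The 23 Vmn2r genes of 7-6 (8) and 7-7 (15) had none covered in any of the 6 libraries, while 7-6 was the cluster with the largest share of H3K9me3. H3K9me3 in either genotype and H3K27me3 in any library fell on the same member in 3 cases, Vmn2r16, Vmn1r48 and Vmn2r87 (0.855%), against 1.09% of all genes.

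Some Vmn2r genes with known ligands or partners are among the members with islands. Vmn2r1 and Vmn2r2 belong to the small group of Vmn2r receptors that is co-expressed with other Vmn2r genes. Vmn2r2 had 43.7% in WT replicate 1, 0% in replicate 2 and 42% in KO. Vmn2r88, a receptor reported to respond to haemoglobin, had 95%, 0% and 76%. Both were covered in WT replicate 1 and KO and bare in WT replicate 2. Vmn2r116, the receptor for the peptide pheromone ESP1, stood at 0% in all 6 libraries.

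Through regeneration, the Vmn2r family had more covered members in the later libraries than in the 0 h library, and Vmn1r numbers moved less. Covered Vmn2r members numbered 5 at 0 h, 13 at 30 h, 13 at 40 h and 18 at 96 h. Covered Vmn1r members numbered 24, 22, 26 and 29. Together these were 29 (8.26%), 35 (9.97%), 39 (11.1%) and 47 (13.4%), against 29.2%, 22.3%, 21.7% and 26.8% of all genes. WT replicate 1, which is also unregenerated liver, had 13 Vmn2r and 36 Vmn1r members covered. The 0 h library thus stood below the other baseline WT library, and the Vmn2r count at 30 and 40 h equalled that of WT replicate 1.

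**Figure D4:**
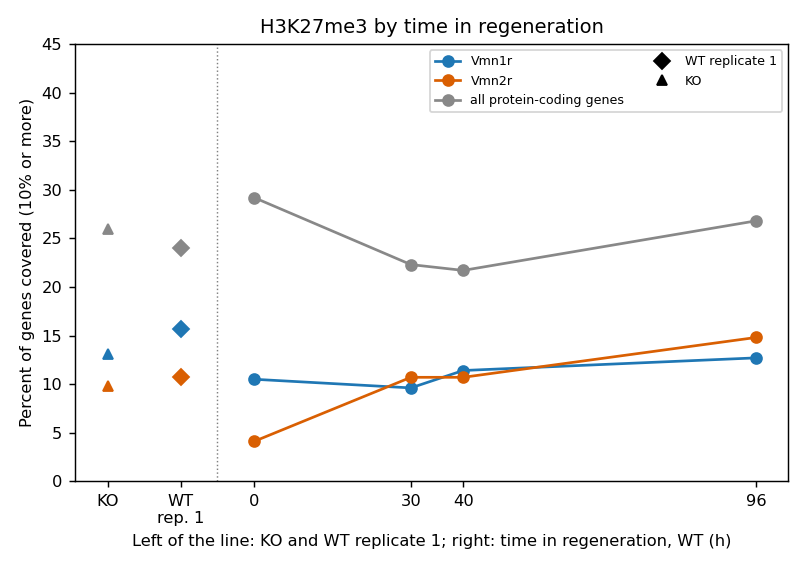
Percent of Vmn1r, Vmn2r and all genes covered by H3K27me3 islands over 10% or more of the window, at 0, 30, 40 and 96 h in WT (circles), with WT replicate 1 (diamonds) and KO (triangles) to the left of the dotted line. Each point is 1 library. Vmn2r stood at 4.1% at 0 h and 14.8% at 96 h, and at 10.7% in WT replicate 1.

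From 0 to 30 h, 17 members were gained and 11 lost, against 1.71% and 8.38% of all genes, and as shares of members these were 4.84% and 3.13%. From 0 to 40 h, 20 were gained and 10 lost (5.7% and 2.85%), against 1.90% and 8.94%. From 0 to 96 h, 25 were gained and 7 lost (7.12% and 1.99%), against 2.20% and 4.47%, and 15 of the gained were Vmn2r. In each of these comparisons the members gained more often than they lost, and all genes lost more often than they gained. Gains and losses of Olfr genes were not counted. The covered share of Olfr genes was 17.5% at 0 h, 17% at 30 h, 13.5% at 40 h and 21.5% at 96 h, so it also ended above its start. From 30 to 40 h, 16 members were gained and 12 lost (4.56% and 3.42%), against 3.57% and 3.96% of all genes. From 40 to 96 h, 18 were gained and 10 lost (5.13% and 2.85%), against 6.82% and 2.16% of all genes. With WT replicate 1 as the start instead of the 0 h library, 13 members were gained by 96 h (6 Vmn1r and 7 Vmn2r) and 15 lost (14 and 1). More members were thus lost than gained with that start. The shares of all genes with that start were not computed, so members and all genes cannot be compared there.

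The control reads differed as well. Of 97 islands with the same bounds at 30 and 40 h, all 97 had the same number of control reads, as did 80 of 80 at 40 and 96 h but 1 of 51 at 0 and 30 h. The control counts of the 0 h list therefore differ from those of the later lists. Whether they come from another control library or another count of the same one is not stated. That difference and time cannot be told apart. Members covered at all of 0, 30, 40 and 96 h numbered 12 (3.42%), against 15.7% of all genes: the 11 named above and Vmn2r27.

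The members gained by 96 h that lay in groups were Vmn1r32, Vmn1r33 and Vmn1r34 in 6-2, Vmn2r80, Vmn2r81 and Vmn2r82 in 10-1, and Vmn2r111, Vmn2r112, Vmn2r114 and Vmn2r115 in 17-2. Vmn2r80 had 0%, 52.0%, 89.6% and 71.0% of its window covered at 0, 30, 40 and 96 h, and 48.2% in WT replicate 1. Vmn2r26, a receptor for peptide ligands of major histocompatibility complex molecules, had 71.3% at 96 h and 0% in the other 5 libraries. Vmn2r111 and Vmn2r112 stood at 0% at 0 and 30 h and 100% at 40 and 96 h. A single island lay over both, 116 kb long at 40 h with a fold of 1.09 and 121 kb at 96 h with a fold of 1.07.

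Over that island the control was also high, with 108 control reads per kb at 40 h against a median of 63.6 over all islands of that list. The 16 islands of 17-2 had folds of 1.07 to 1.23 and 1.29 to 1.93 times their lists' median of control reads per kb. The same held in 4-1, 4-2 and 18-1, with folds of 1.08 to 1.22. These 4 clusters hold 12 members, among them Vmn1r2 and Vmn1r3, which were at 100% in WT replicate 1, 30 and 40 h and at 0% in the other 3 libraries. They also hold Vmn2r129, the lost member Vmn1r238 and Vmn2r117, which was covered in all 6 libraries. Without the 12, covered Vmn2r members numbered 3, 10, 8 and 13 at 0, 30, 40 and 96 h. In the other 17 clusters with islands the median ratio of control reads lay between 0.983 and 1.17.

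H3K4me3 was nearly absent from receptor genes. A peak touched the window of 5 members in WT replicate 1 (1.42%), 2 in WT replicate 2 (0.57%), 6 in KO replicate 1 (1.71%) and 3 in KO replicate 2 (0.855%). The same shares of all genes were 72.2%, 63.2%, 71.7% and 66.0%. Olfr genes were as bare, with 0.725%, 0.0907%, 0.816% and 0.0907% in the same order. No member was gained, with a peak in both KO libraries and neither WT library, against 0.141% of all genes. None was lost either, as for all genes (0%). Within the first set, 1 member was gained (Vmn2r35) and 0 were lost, against 1.11% and 1.60% of all genes. Within round 2, 1 was gained (Vmn2r20) and 0 lost, against 3.20% and 0.331%. With WT replicate 1 left out, or KO replicate 2 left out, 1 member was also gained. The 6 members concerned were Vmn1r4, Vmn2r20, Vmn2r21, Vmn2r29, Vmn2r35 and Vmn2r93.

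Only Vmn1r4 and Vmn2r29 had a peak in all 4 libraries (0.57% of members), against 62.4% of all genes. At Vmn1r4 a pair of peaks lies around the outer bound of the gene, with folds of 19.8 and 19.3 in WT replicate 1, 41.6 and 62.2 in WT replicate 2, 20.3 and 20.3 in KO replicate 1, and 56.2 and 68.9 in KO replicate 2. There the gene overlaps Nt5c3 (chr6:56882400-56924008), a nucleotidase gene. The start listed for Vmn1r4 in the promoter table lies 32599 bp further in, has 1 CG pair and 31% G and C, and had no peak of any mark. In each library the first peak lies inside Nt5c3, near its higher coordinate bound (56924008). The second begins just past that bound, inside the outer bound of Vmn1r4. The strand of Nt5c3 was not read here, so this bound may be its start. Neither lies at the listed start of the receptor.

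At Vmn2r29 the peak overlapped the 300 bases at the outer start printed above and reached into the gene. In WT replicate 2, KO replicate 1 and KO replicate 2 the main peak overlapped the inner part of those bases only. Its fold was 24.8 in WT replicate 1, 18.7 in WT replicate 2, 23.7 in KO replicate 1 and 29.2 in KO replicate 2. The outer start had no H3K27me3 island in any library. It did carry an H3K9me3 peak in both genotypes, with folds of 4.85 in WT and 5.23 in KO, the highest over any member, and −log10 q-values of 8.08 and 9.29. H3K4me3 in all 4 libraries together with H3K9me3 in both was found, counting an overlap of 1 base, at the promoters of 4 of 16457 genes (0.0243%): Abcg2, Tmem267, Vmn2r29 and Zfp984. The inner start had no peak of any mark. The nearest genes are Zfp772, 2997 bp away on 1 side, and Clcn4, 4019 bp away on the other, and both had H3K4me3 in all 4 libraries and no H3K9me3.

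The other 4 members had weaker peaks. Vmn2r20 had them in 3 libraries, with folds up to 8.46, 7.1 and 5.8 in WT replicate 1, KO replicate 1 and KO replicate 2, and a pseudogene (Gm18375) is annotated over the bases of these peaks. In WT replicate 1 and KO replicate 1 the gene had another peak outside that pseudogene, with folds of 7.29 and 6.58. Vmn2r21 and Vmn2r93 had peaks in replicate 1 of each genotype alone, and Vmn2r35 had 1 peak with a fold of 4.74 in KO replicate 1. The replicate 1 lists hold more than 70000 peaks each and the replicate 2 lists fewer than 27000.

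The promoters of the receptor genes were poor in CG pairs. A promoter sequence was matched for 322 members (206 Vmn1r and 116 Vmn2r). The median number of CG pairs in the 300 bases was 1 in both families, against 14 over all genes. The median share of G and C was 36% in Vmn1r and 38% in Vmn2r, against 56.7%. Promoters with 10 or more CG pairs were 58.6% of all genes, 0 of 206 Vmn1r and 1 of 116 Vmn2r. That 1 was the outer start of Vmn2r29, and the next member had 6. Olfr promoters also had a median of 1.

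**Figure D5:**
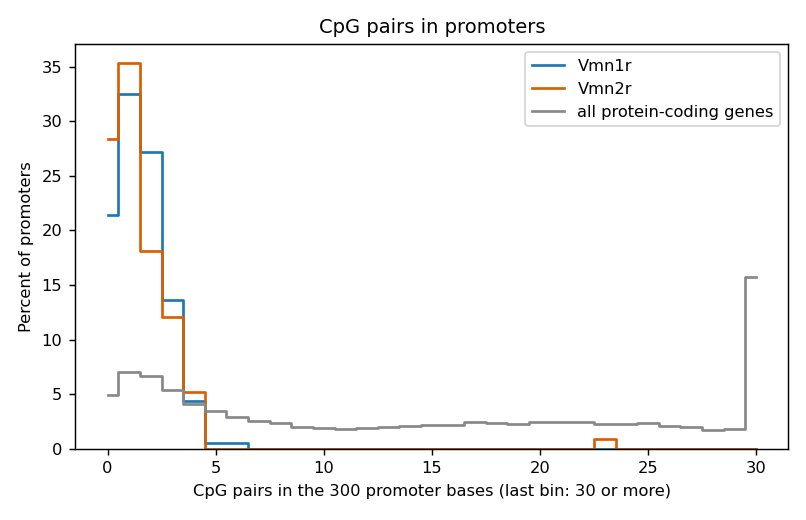
Number of CG pairs in the 300 promoter bases, as percent of promoters, for Vmn1r (206), Vmn2r (116) and all protein-coding genes. Nearly all receptor promoters have 0 to 4 pairs, and the outer start of Vmn2r29, with 23, stands alone.

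Among Vmn1r genes, 17 of 43 promoters of members with an H3K27me3 island in any library had no CG pair (39.5%), against 27 of 163 of the others (16.6%), and in Vmn2r the shares were 26.9% and 28.9%. The median was 1 in Vmn1r genes with an H3K27me3 island in any library and 2 in those without, and 2 and 1 in Vmn2r. For H3K9me3 it was 2 in covered Vmn1r genes and 1 in the others, and 1 in both groups of Vmn2r.

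Genes that work with the receptors in vomeronasal neurons were read in the same way, from a list of 28, of which 27 were matched. H3K27me3 covered 13 of them in WT replicate 1, 14 in WT replicate 2 and 17 in KO, and 11, 13 and 13 at 30, 40 and 96 h. These are larger shares than in the receptors and than in all genes. The shares of all genes were 24%, 29.2%, 26%, 22.3%, 21.7% and 26.8% in the same order. No test of these differences was made. The H2-M genes encode class I-like molecules co-expressed with Vmn2r receptors. Of these, H2-M10.3 stood at 100% in all 6 libraries, and H2-M9 at 100% in all but the 96 h library (49.5%). Gnao1, the G protein subunit of Vmn2r neurons, had 20.4%, 78.1% and 42.7% of its window covered at baseline. The formyl peptide receptor genes Fpr-rs3, Fpr-rs4, Fpr-rs6 and Fpr-rs7 had no region of any list.

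An H3K4me3 peak was present at 9 of the 27 in replicate 1 of each genotype and at 6 in replicate 2 of each. The shares of all genes were larger, at 72.2% (WT) and 71.7% (KO) in replicate 1, and 63.2% and 66.0% in replicate 2. Gnai2, the G protein subunit of Vmn1r neurons, and B2m, the shared light chain of class I molecules, had peaks in all 4 libraries, and both are used in many tissues. Trpc2, the cation channel of vomeronasal transduction, and Omp, a marker of mature olfactory neurons, had none. Trpc2 was covered by H3K27me3 in KO (11.8%) and under 10% elsewhere. H3K9me3 covered 1 gene of the list in WT, H2-M10.4 (14.2%), and 0 in KO, where the same gene had 8.37%. Of all genes it covered 3.20% in WT and 2.92% in KO.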

How the data were processed

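The 12 ChIP-seq libraries were made from mononucleosomes (nuclei cut with MNase), per the labels' protocols, and each has its own list of regions. The submitters' processing notes name FastQC 0.11.5, Picard, BWA, SICER, Trimmomatic and MACS2, with builds GRCm38.p4 and mm10. Their settings, the treatment of reads with several matches and the control used for each list are not stated in what was used here.

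H3K4me3 lists are narrow peaks and H3K9me3 lists broad and narrow peaks in the layout of MACS2. For each peak the authors deposited a score, a fold enrichment, and −log10 p-values and q-values. H3K27me3 lists are SICER islands (window 1000 bp and gap 4000 bp, per the deposited lists' names), for which the authors deposited the count of ChIP reads, the count of control reads, a p-value, a fold of ChIP over control and an FDR. Lists were used as deposited, with islands of FDR 0.01 or below.

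Genes were the protein-coding genes of chromosomes 1 to 19 in RefSeq (GRCm38.p6), the same assembly coordinates as the files' builds. The percent of each gene body with 1 kb on each side that lay in regions was computed per library. A gene was covered from 10%. An H3K4me3 peak counted from 1 bp. No fit or test was made. Promoters are RefSeq's 300 bases, 17 members having a row off their outer bound. The gene lists and members were chosen with earlier results of these data known. Genes were named by a written rule: the 10 members with the highest mean coverage per mark, up to 10 lost or gained per comparison, all members with an H3K4me3 peak, the highest and lowest H3K9me3 member of each cluster, and a signal list. Other genes named for their position, for a known ligand or as a pattern across libraries were chosen after their values were seen.

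The coverage step was tested on simulated data: 500 of 500 windows equalled a base by base count, and 100 of 100 covered windows were found with 0 in error. Alternatives were the coverage minimum, stricter or other region lists, lists of equal length, leaving out libraries, another 0 h library, and leaving out near-identical members or clusters with many control reads. Coverage was computed with pandas 2.3.3 and numpy 2.4.6 under Python 3.11.15, promoter identity with edlib, and figures with matplotlib 3.10.9.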

Additional observations from a re-analysis of the deposited data

How the results depend on the processing

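Of the values recomputed under other settings, 132 stayed within 1.5 times the reported count and 83 did not. Most reported counts are small, so 1 or 2 genes can move them past that limit. No paired analysis was possible because the lists of called regions allow no fit with a block, so counts within a set are given instead. Read depth is unknown, and the calling threshold limits what a list can show. The cause of a moved count was not tested.

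For H3K9me3, where 13 members were covered in WT, 9 in KO, 1 was lost and 1 gained, counting from 1 bp gave 53, 44, 17 and 8. From 50% of the window all 4 counts were 0, as they were with q-values of 1e-05 or below. With the gene body alone 2 were lost and 0 gained. Narrow peaks gave 2 covered in WT, 1 in KO and 0 lost. Without near-identical members, chosen after seeing the data, 6 and 3 were covered, 0 were lost and 0 gained.

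For H3K27me3 at baseline, islands with a fold of 2 or more covered 2 members in WT replicate 1, 0 in WT replicate 2 and 0 in KO, with 0 lost and 0 gained. With lists cut to equal covered length, 17 were covered in KO, 7 were lost and 3 gained. Leaving out 1 WT library gave 4 to 14 lost and 7 to 18 gained, and the 14 lost and 7 gained are those of the set that KO shares with WT replicate 1. For H3K4me3, a minimum of 10% or 50% of the window left 0 members in each of the 4 libraries and 0 in all of them. Leaving out 1 library gave 0 to 1 gained and 0 to 0 lost, and within the first set and within round 2, chosen after seeing the data, 1 was gained and 0 lost in each.

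In regeneration, a minimum of 50% covered 3, 7, 10 and 9 Vmn2r members at 0, 30, 40 and 96 h, with 7 gained and 1 lost from 0 to 96 h. All deposited islands, with no FDR limit, covered 43 Vmn1r members at 30 h and 9 Vmn2r members at 0 h, with 17 Vmn1r gained, 8 Vmn1r lost and 1 Vmn2r lost. Islands with a fold of 2 or more covered 0 members of either family at every time, except 1 Vmn1r at 96 h, which was also the 1 gained, with 0 lost. Of all genes, such islands covered 5.96% at 0 h, 0.126% at 30 h, 0.287% at 40 h and 6.35% at 96 h. Few genes of any kind were thus covered at this setting at 30 and 40 h. Equal covered length gave 17, 17, 26 and 14 Vmn1r covered at 0, 30, 40 and 96 h. From 0 to 96 h, 4 Vmn1r were gained and 7 lost, the opposite balance to the reported 10 and 5. It gave 2, 5, 13 and 6 Vmn2r covered at the same times, with 4 gained and 0 lost. From 50% and at equal covered length, the Vmn2r count was thus highest at 40 h, not at 96 h. With WT replicate 1 as the start, 13 Vmn2r members were covered at the start, 6 Vmn1r and 7 Vmn2r were gained, and 14 Vmn1r and 1 Vmn2r were lost. Without the 4 clusters high in control reads, chosen after seeing the data, 3 and 8 Vmn2r members were covered at 0 and 40 h and 1 was lost. Without near-identical members 8 Vmn2r were covered at 40 h.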

Other observations

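Vomeronasal receptor pseudogenes, which lie among the receptor genes, were read in the same way. Of 128 Vmn2r pseudogenes, H3K9me3 covered 25 in WT (19.5%) and 21 in KO (16.4%). Of 137 Vmn1r pseudogenes, it covered 10 (7.3%) and 7 (5.11%). The shares of all genes were 3.20% and 2.92%. In both families and both genotypes the pseudogenes had a larger covered share than the protein-coding members, and no test of that difference was made. Length differs between the groups and its part was not tested. H3K27me3 covered 27, 12 and 20 Vmn1r pseudogenes in WT replicate 1, WT replicate 2 and KO (19.7%, 8.76% and 14.6%). It covered 14, 8 and 11 Vmn2r pseudogenes (10.9%, 6.25% and 8.59%). The shares of all genes were larger, at 24%, 29.2% and 26%. An H3K4me3 peak touched 2 Vmn1r (1.46%) and 11 Vmn2r pseudogenes (8.59%) in replicate 1 of each genotype, and 0 and 5 (3.91%) in replicate 2 of each. The shares of all genes were 72.2% (WT) and 71.7% (KO) in replicate 1, and 63.2% and 66.0% in replicate 2.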
